A study of Mus musculus with 48 samples.

Results

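In mouse embryonic stem cells that depended on a wild-type (WT) CTCF transgene, 1714 of 15392 WT FLAG peaks (11.1%) lay on a CTCF antibody peak of the same treated cells but on no peak of the cohesin subunit SMC3. These cohesin-free sites were chosen by measured values: a peak in the WT FLAG and the treated CTCF antibody lists, overlapping by at least 1 bp, and none in the WT SMC3 list. They were described beside 12309 WT FLAG peaks (80.0%) that overlapped both other lists, called cohesin-positive here. Of the 14023 WT FLAG peaks with a treated CTCF antibody peak, 12.2% were cohesin-free. "Cohesin-free" says only that the deposited WT SMC3 list held no peak there.

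The cells were E14Tg2a, a feeder-free embryonic stem cell line, in which endogenous CTCF carried an auxin-inducible degron and a FLAG-tagged Ctcf transgene was switched on by doxycycline. The transgene was WT or had a single residue changed (R339Q, R342C, S354F or K365T, then R377C or R377H, and Q418R, R448Q or H455R), with 1 cell line for each genotype. WT and mutant lines alike carried the degron, and every FLAG and SMC3 list used came from cells given 500 µM of the auxin indole-3-acetic acid and 1 µg/ml doxycycline for 2 days. A CTCF antibody was used only in the WT line, treated or untreated. ChIPmentation, a chromatin immunoprecipitation in which a transposase adds the sequencing adapters on the beads, was made for 48 samples in 24 groups of 2, and 22 groups had a peak list. Each list pools replicates 1 and 2, so a genotype gives 1 value without a replicate spread, and the depth of the libraries is unknown. Ranges in parentheses are 95% Wilson intervals, and they hold the counting error over peaks alone. Lists differed in length, from 3855 to 30462 FLAG peaks and from 42030 to 153647 SMC3 peaks, and the WT SMC3 list with 71962 peaks was shorter than 8 of the 9 mutant SMC3 lists.

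CTCF reads DNA with a row of zinc fingers and is known as the main barrier to loop extrusion by cohesin. Cohesin is a ring of SMC1, SMC3, RAD21 and a STAG subunit that is loaded with the help of NIPBL, travels along chromatin and halts at CTCF, where it shows as an SMC3 peak. CTCF can also sit on DNA without detectable cohesin, and such sites are generally not anchors of loops.

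Sequence could be looked at in promoter windows, which RefSeq gives for GRCm38.p6 (mm10) from 250 bases before to 50 bases after a start. The motif searched was the run of fixed letters in the CTCF core consensus, CCA followed by 2 free bases, then AG, 2 further free bases and GGC, on both strands. It was found in 797 of 32851 promoter windows (2.43%). Of 67 windows overlapped by a cohesin-free site 8 held it (11.9%, 6.18 to 21.8), against 147 of 658 windows overlapped by a cohesin-positive site (22.3%, 19.3 to 25.7). The match lay inside the WT FLAG peak itself in 4 of the 67 windows (5.97%, 2.35 to 14.4) and in 144 of the 658 (21.9%, 18.9 to 25.2). Cohesin-free FLAG peaks are narrower (median width 153 bp against 283 bp for all sites of each kind), which leaves less room for a match. An overlap of 1 bp was enough, so a peak's own motif can lie outside the window. The part of either in the difference was not tested. A match is a description of letters, not a measured binding site, and windows of 1 gene can share a peak. The stretches below show what such matches look like in both kinds of site, with the motif in capitals. They lie upstream of the start and on the gene's strand, and in each the match is inside the WT FLAG peak. The first 3 are cohesin-free sites, at the lncRNA gene Gm36569 (chr3:79886827-79886898, minus strand), at Epha1, an ephrin receptor gene (chr6:42373411-42373482, minus strand), and at Atp6v1d, a subunit gene of the vacuolar proton pump (chr12:78861784-78861855, minus strand).
Gm36569: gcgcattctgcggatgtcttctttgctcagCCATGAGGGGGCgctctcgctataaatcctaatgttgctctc
Epha1: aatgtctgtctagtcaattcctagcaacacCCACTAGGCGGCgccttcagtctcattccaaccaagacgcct
Atp6v1d: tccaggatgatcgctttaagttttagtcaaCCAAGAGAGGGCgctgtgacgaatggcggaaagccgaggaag
The next 3 are cohesin-positive, at the lncRNA gene Gm41414 (chr16:5306744-5306815, plus strand), at Agfg1, which codes for a nucleoporin-like protein (chr1:82839348-82839419, plus strand), and at Hs1bp3 (chr12:8313319-8313390, plus strand).
Gm41414: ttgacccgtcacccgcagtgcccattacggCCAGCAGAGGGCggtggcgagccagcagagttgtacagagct
Agfg1: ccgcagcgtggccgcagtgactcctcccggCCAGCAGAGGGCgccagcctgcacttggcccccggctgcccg
Hs1bp3: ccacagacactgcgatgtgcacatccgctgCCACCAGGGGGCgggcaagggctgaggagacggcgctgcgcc

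The 3 printed cohesin-free promoters kept FLAG in 6, 5 and 6 mutants and had SMC3 in 4, 1 and 2 mutants, in the order Gm36569, Epha1 and Atp6v1d. The Gm36569 site lay 3.16 kb from the nearest WT SMC3 peak, the Epha1 site 6.94 kb and the Atp6v1d site 28.1 kb. The 3 cohesin-positive promoters had SMC3 in all 9 mutants and FLAG in 8, 9 and 8. Their WT FLAG peak scores were 15.6, 10.2 and 10.0, far above the median of 4.00 at cohesin-positive sites. The 3 cohesin-free promoters had scores of 4.70, 3.28 and 2.65. The examples are therefore not matched in strength and do not stand for the 2 kinds of site.

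The values that chose the sites are given as a description. Each list has a score of the authors' peak caller for every peak, called its value here, which is compared only within a list. A site took the highest value among the CTCF antibody peaks that overlapped it. Treated antibody peaks had a median width of 1688.5 bp at cohesin-free and 2602 bp at cohesin-positive sites. The same broad peak can cover neighbouring sites, so its value need not belong to the site alone. The WT FLAG value of cohesin-free sites had a median of 3.13 and ran from 1.60 to 10.3, against a median of 4.00 at cohesin-positive sites. The treated CTCF antibody value had a median of 62.5 against 103, which placed the median cohesin-free site at percentile 89.2 of that list and the median cohesin-positive site at percentile 95.1. Cohesin-free sites were therefore weaker than cohesin-positive ones but stood in the upper part of the CTCF antibody list. Their FLAG peaks were also narrower, with a median width of 153 bp against 283 bp, and 148 (8.63%) carried more than 1 summit against 2209 (17.9%).

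Every cohesin-free site also had a peak in the untreated CTCF antibody list, which the choice did not use: 1714 of 1714 (100%, 99.8 to 100), against 12308 of the 12309 cohesin-positive sites and 91.2% of all WT FLAG peaks. The untreated value had a median of 45.5 at cohesin-free and 61.3 at cohesin-positive sites. CTCF was thus also listed at these positions in cells not given indole-3-acetic acid.

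The edge of the choice was thin. Distance to the nearest WT SMC3 peak had a median of 10644 bp, and 36 cohesin-free sites had one within 100 bp, 270 (15.8%) within 1 kb and 839 (48.9%) within 10 kb. The 36 sites just outside an SMC3 peak had a median WT FLAG value of 2.73 and a median treated CTCF value of 76.5. The 47 cohesin-positive sites that shared at most 50 bp with an SMC3 peak had medians of 2.93 and 76.0. SMC3 was listed at these 2 edge groups in a mean of 40.4% and 46.8% of the mutant lists. The running numbers in the peak names show that some peaks were removed before deposit, but at 1682 cohesin-free sites (98.1%) the flanking WT SMC3 peaks carried consecutive numbers, so that no removed peak lay between them.

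Mutant CTCF proteins held cohesin-free sites less often than cohesin-positive ones. Under R377C 1613 sites (94.1%, against 98.2% of cohesin-positive sites and 89.6% of all WT FLAG peaks) kept a FLAG peak, and under S354F 1332 sites did (77.7%, against 95.7% and 86.2%). R448Q kept 69.5% (82.6% of cohesin-positive sites, 75.2% of all) and R377H kept 64.9% (80.0% and 71.8%). In these 4 lines, and in R342C, most cohesin-free sites were still listed. R342C kept 54.5% (82.3% of cohesin-positive sites, 72.2% of all), Q418R 44.7% (64.7% and 59.2%) and R339Q 41.0% (60.5% and 53.1%). K365T kept 33.7% (58.4% and 52.1%), and H455R kept 126 sites (7.35%, against 9.52% and 10.5%). Apart from R377C, the cohesin-free share lay below the share of all WT FLAG peaks, which include 1175 peaks on neither other list. At these 1175 peaks H455R had FLAG at 18.7%, Q418R at 22.0% and K365T at 13.7%. The other lines ran from 0.851% in R339Q to 11.2% in R448Q. Only H455R was listed there more often than at cohesin-free or cohesin-positive sites. At WT FLAG peaks on the WT SMC3 list alone its share was 47.9%. Whether the FLAG peaks that H455R kept mark CTCF binding was not tested.

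Over the 9 mutants the cohesin-free share was on average 16.1 percentage points below the cohesin-positive share (SD 8.59, n = 9 mutants), and it was lower in 9 of 9. The differences ran from -27.8 points under R342C to -2.17 under H455R, with an exact two-sided sign-flip permutation p of 0.00391, the smallest 512 flips can give, and 0.00391 after Benjamini-Hochberg adjustment over 3 tests. All 9 differences share the same WT sites, so they are not independent. Compared within deciles of strength the gap was smaller. It was -8.85 points over deciles of the WT FLAG value (exact permutation p = 0.00781). Over deciles of the treated CTCF value it was -5.46 (exact permutation p = 0.0234). Strength can still differ inside a decile: the lowest CTCF decile ran from 3.10 to 53.1 and held 611 cohesin-free sites. With the CTCF deciles R377H (0.679) and H455R (1.25), and with the FLAG deciles H455R (1.34), kept cohesin-free sites slightly more often.

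**Figure D1:**
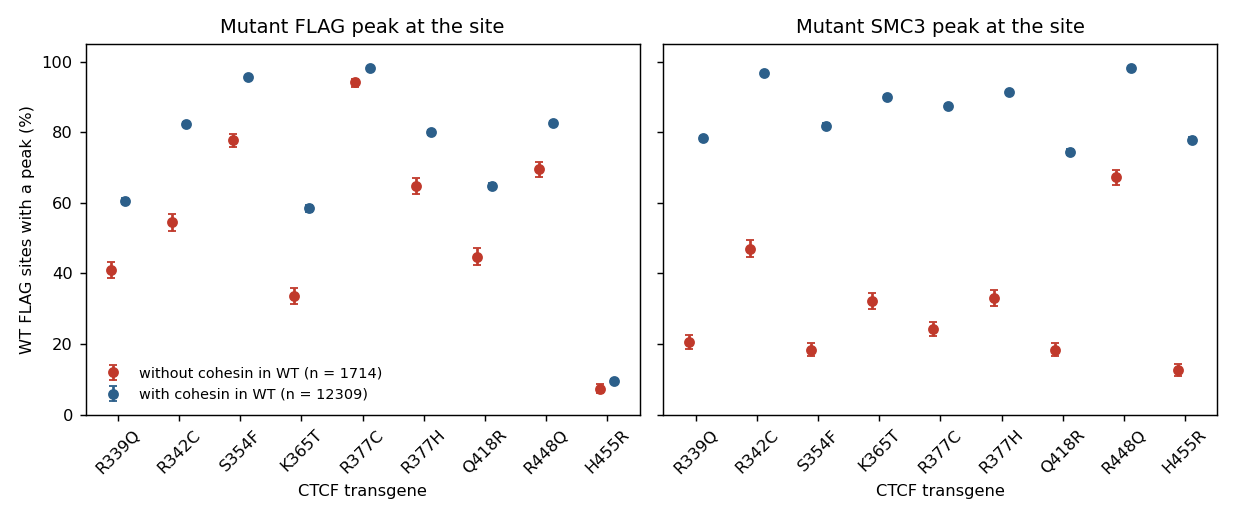
Percent of cohesin-free (red) and cohesin-positive (blue) WT FLAG sites with a FLAG peak (left) and with an SMC3 peak (right) in each of the 9 mutants. Bars are 95% Wilson intervals over sites. The FLAG shares of the 2 kinds of site differ by -27.8 to -2.17 points and the SMC3 shares by -65.3 to -31.0 points.

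The mutant SMC3 lists, which the choice did not use, separated the same sites by more percentage points than the FLAG lists did. That contrast was not tested and is uneven, since the WT SMC3 list divided the sites while all of them had a WT FLAG peak. SMC3 was listed at 12.5% of cohesin-free sites in H455R cells (77.9% of cohesin-positive sites, 64.9% of all WT FLAG peaks), at 18.3% in S354F (81.9% and 68.3%) and at 18.3% in Q418R (74.4% and 62.3%). In R339Q the share was 20.5% (78.3% and 65.7%), and in R377C it was 24.3% (87.5% and 73.7%). Among these 5 lines 24.3% was the highest share of cohesin-free sites with cohesin. K365T had SMC3 at 32.1% (90.1% and 76.8%), R377H at 33.0% (91.3% and 78.1%) and R342C at 47.0% (96.8% and 83.9%). R448Q stood apart with 67.2% (64.9 to 69.4, against 98.2% and 87.3%), and its SMC3 list was the longest.

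The mean difference was -55.9 percentage points (SD 10.4, n = 9 mutants), from -65.3 in H455R to -31.0 in R448Q, and negative in 9 of 9 (exact two-sided sign-flip permutation p = 0.00391, adjusted 0.00391 over 3 tests, with the same WT sites behind all 9). Since the sites were divided by WT SMC3, SMC3 peaks that recur between lines give a negative difference by themselves. The p-value adds little to that. With mutant SMC3 lists limited to as many top peaks as the WT list the mean difference was -58.6. It was -27.4 (exact permutation p = 0.00781) when peaks had to share 50% of each other's length, and R448Q then turned to 2.04. The SMC3 peak names carry a tag (b1, b2 or b3) of unstated meaning. In the 5 mutants tagged b1 only, as WT is, the difference was -52.5, and the exact permutation p of 0.0625 is the smallest that 5 values allow.

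At the 1175 WT FLAG peaks on neither the treated CTCF nor the WT SMC3 list, the shares with mutant SMC3 ran from 0.426% in Q418R to 3.57% in R448Q, below the cohesin-free share in each of the 9 mutants. At the 194 WT FLAG peaks on the WT SMC3 list alone they ran from 53.6% to 91.2%. Where SMC3 was listed at cohesin-free sites its peaks had lower values than at cohesin-positive sites: their median percentile within the mutant list ran from 57.7 to 79.1 over the 9 mutants, against 87.2 to 96.0 at cohesin-positive sites. These ranges did not overlap.

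Most cohesin-free sites had an SMC3 peak in some mutant list. At least 1 mutant had SMC3 at 1461 of the 1714 sites (85.2%), against 12281 of the 12309 cohesin-positive sites (99.8%). The cohesin-free count was 1354 (79.0%) when the mutant lists were limited to the WT length. With equal numbers of top peaks it was 1171 (68.3%). The median site had SMC3 in 2 mutants, whereas the median cohesin-positive site had it in 9. All 9 mutants had SMC3 at 18 cohesin-free sites (1.05%) and at 6961 cohesin-positive sites (56.6%). No mutant had it at 253 cohesin-free sites (14.8%) and at 28 cohesin-positive ones (0.227%). Of the 333 cohesin-free sites with SMC3 in exactly 1 mutant, 193 (58.0%) had it in R448Q. Part of the set is therefore listed without cohesin only in WT, and part in every genotype or nearly so.

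**Figure D2:**
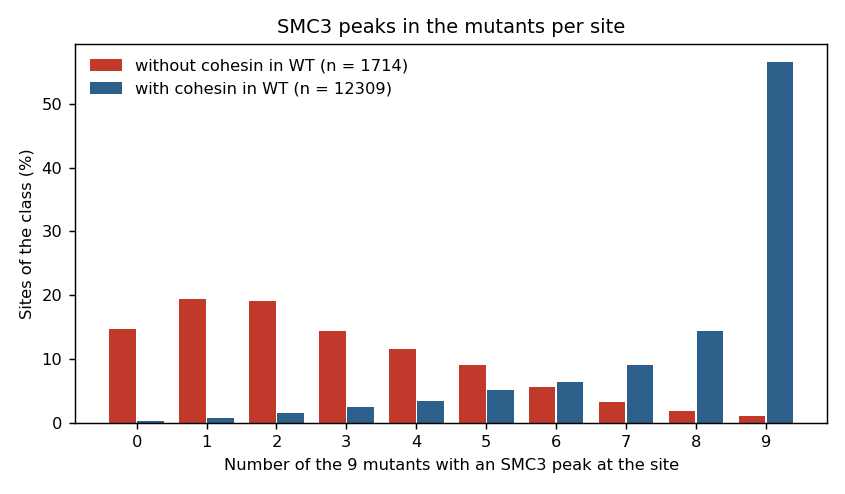
Percent of cohesin-free (red) and cohesin-positive (blue) sites by the number of mutants, 0 to 9, that had an SMC3 peak there. Cohesin-free sites gather at 1 (19.4%) and 2 (19.1%) mutants, and cohesin-positive sites at 9 (56.6%).

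The number of mutants with SMC3 went with the CTCF antibody value listed at the site. The 253 sites with none had a median treated CTCF value of 48.9, the 906 with 1 to 3 had 58.6, the group with 4 to 6 (26.1% of the set) had 73.1 and the 107 with 7 to 9 had 88.0. In the untreated list, which took no part in the choice, the medians were 39.5, 42.9, 51.4 and 59.6 in the same order. The nearest WT SMC3 peak was also closer, with medians of 13.2, 12.1, 8.41 and 4.70 kb. FLAG was kept in a median of 3, 5, 6 and 7 mutants in these classes.

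Within the cohesin-free set, mutant FLAG and mutant SMC3 peaks went together. In K365T cells 58.2% of the 577 sites that kept FLAG had SMC3, against 18.8% of the 1137 that lost it. In R448Q the shares were 77.2% and 44.4%, and in R342C 60.7% and 30.6%. H455R kept FLAG at only 126 sites, of which 42.1% (33.8 to 50.8) had SMC3 against 10.2% of the others. The same order held in R339Q (38.5% and 8.00%), Q418R (34.2% and 5.39%) and R377H (43.1% and 14.5%). In R377C the shares were 25.4%, and 5.94% of 101 lost sites, and in S354F 21.9% and 5.76%, which were the lowest shares among sites that kept FLAG.

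Sites that kept FLAG exceeded sites that lost it by a mean of 28.6 percentage points (SD 6.98, n = 9 mutants, 16.2 in S354F to 39.4 in K365T), higher in 9 of 9 (exact two-sided sign-flip permutation p = 0.00391, adjusted 0.00391 over 3 tests, at the same 1714 sites). It was 26.2 points within deciles of the treated CTCF value. When both kinds of mutant peak had to share 50% of each other's length the mean was 12.5 (exact permutation p = 0.0234), with S354F at -0.0196 and R377C at -5.26. In the 5 mutants tagged b1 only it was 32.6, at the smallest exact permutation p of 0.0625. Cohesin-positive sites showed a mean difference of 27.2 points (SD 16.8, 6.95 in R448Q to 59.6 in S354F), and whether the 2 kinds of site differ in this was not tested.

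**Figure D3:**
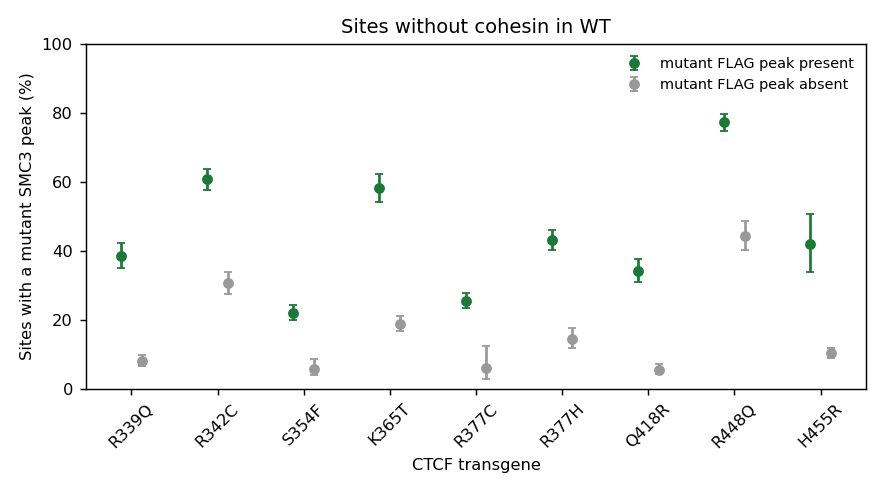
Percent of cohesin-free sites with a mutant SMC3 peak, split by whether the same mutant kept (green) or lost (grey) its FLAG peak there, for each of the 9 mutants. Bars are 95% Wilson intervals over sites. The green point is above the grey one in every mutant, by 16.2 to 39.4 points.

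The share of CTCF sites without cohesin depended on how strong the CTCF peak was, which is a description since both values entered the choice. In the lowest decile of treated CTCF values, up to 53.1, 611 of 1406 sites (43.5%) were cohesin-free, and in the highest decile, from 162 on, 37 of 1398 were (2.65%). Over deciles of the WT FLAG value the share was 13.1% in the lowest, 25.5% in the second and 0.499%, or 7 of 1403 sites, in the highest. The mutant SMC3 lists, which took no part in the choice, can be read within deciles of the treated CTCF value. In the lowest decile a mean of 20.3% of the mutant lists had SMC3 at a cohesin-free site and 57.4% at a cohesin-positive one, and in the highest decile 51.4% and 97.9%. Cohesin-free sites thus had mutant SMC3 less often in both deciles, and over all deciles the standardised difference was -41.8 points.

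**Figure D4:**
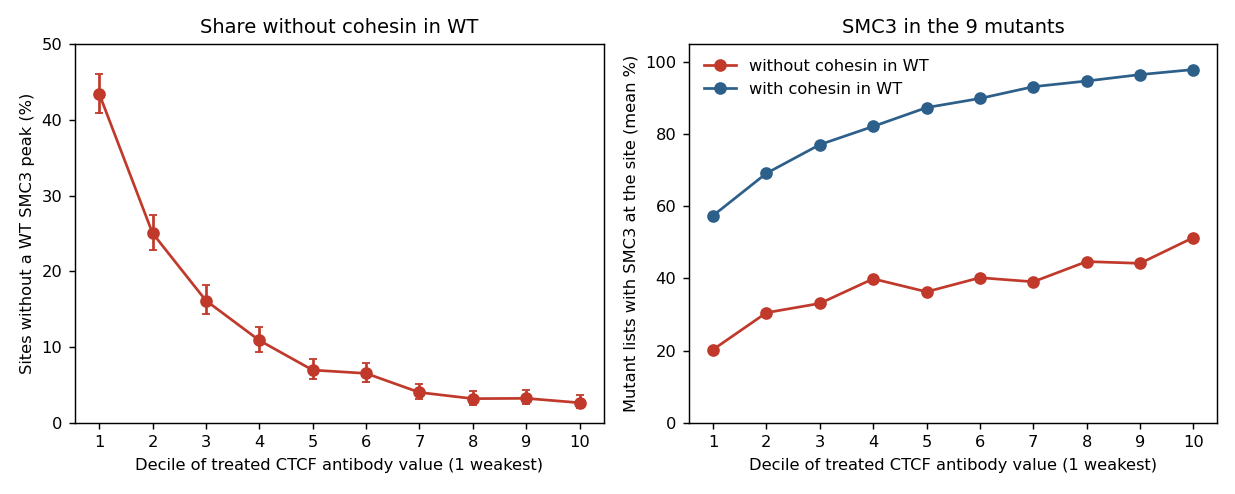
Left, percent of CTCF sites without a WT SMC3 peak (with 95% Wilson intervals) in each decile of the treated CTCF antibody value, which falls from 43.5% to 2.65%. Right, mean percent of the 9 mutant lists with SMC3 at cohesin-free (red) and cohesin-positive (blue) sites in the same deciles, where the red line stays below the blue one.

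Cohesin-free sites lay on every autosome and on X. Their share of the CTCF sites was 49 of 203 on X (24.1%, 18.8 to 30.5) and 1665 of 13820 on the autosomes (12.0%, 11.5 to 12.6), where single chromosomes ran from 8.56% on chromosome 16 to 16.8% on chromosome 14. CTCF sites on X had a lower median treated CTCF value, 80.3 against 98.9. Autosomal sites weighted to the CTCF deciles of X gave 14.7%, and weighted to its FLAG deciles 11.9%. What sets X apart was not tested further.

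**Figure D5:**
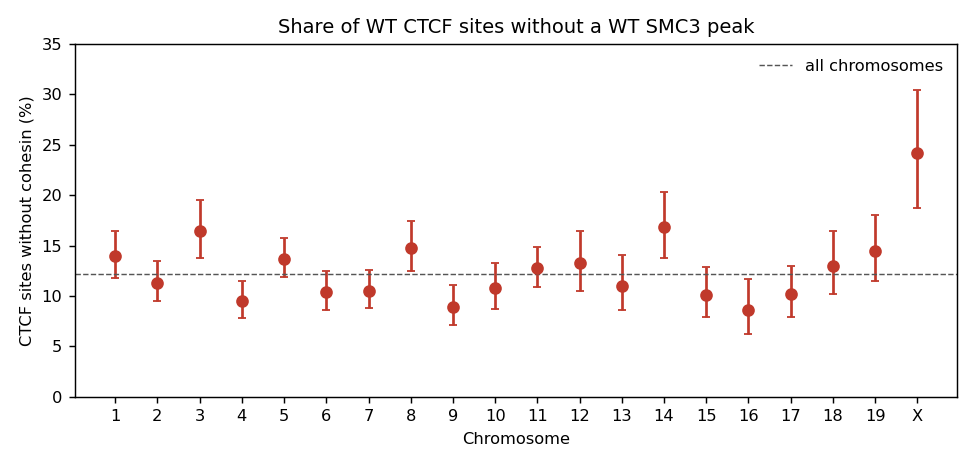
Percent of WT CTCF sites without a WT SMC3 peak on each chromosome, with 95% Wilson intervals over sites. The dashed line is the share over all chromosomes (12.2%), and X has the highest share (24.1%).

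In position the set resembled other CTCF sites with small shifts. The nearest other WT FLAG peak was a median of 26372.5 bp away, against 20447 bp for cohesin-positive sites. That neighbour was cohesin-positive for 1390 cohesin-free sites (81.1%) and 10462 cohesin-positive sites (85.0%), and itself cohesin-free for 14.2% and 10.8%. A protein-coding or lncRNA gene span held 62.9% (60.6 to 65.1) of cohesin-free and 54.1% (53.2 to 55.0) of cohesin-positive sites. A start lay within 1 kb of 5.91% (4.88 to 7.16) and 8.40% (7.92 to 8.91). Cohesin-free sites were therefore more often inside genes and less often near starts, by these counts without a test. Whether they are exonic or intronic is not known, since only gene spans were used.

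Sites are named below by the nearest protein-coding gene. The strongest WT FLAG peak of the set overlapped the start of Api5, an apoptosis inhibitor gene (chr2:94438005-94438464, mm10), with a FLAG value of 10.3 that ranked 225 of the 15392 peaks. All 9 mutants had FLAG there and K365T, R377H, R448Q and H455R had SMC3, although the nearest WT SMC3 peak was 27.5 kb away. The next, 2.52 kb from Obp2a, an odorant-binding protein gene (chr2:25694549-25695060), had a FLAG value of 9.73 and was 73.0 kb from WT SMC3. It had SMC3 in 7 mutants, all but S354F and R448Q, and FLAG in 8, all but H455R. A site in Brd7, which codes for a bromodomain subunit of a SWI/SNF remodeller (chr8:88361994-88362549), had the highest treated CTCF value of the set, 250, with SMC3 in R339Q, K365T, R448Q and H455R. At these 3 sites some mutants had SMC3 and others did not. Their untreated CTCF values were 74.4, 43.9 and 65.2 in the order named, and the value at Obp2a was below the median of the set.

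The 5 other sites of the top 8 by WT FLAG value had values of 6.81 to 9.24. The site in Prkcb, the gene of protein kinase C beta (chr7:122444934-122445441), kept FLAG in all 9 mutants and had SMC3 in R377C, R377H and R448Q. The site in Kctd9 (chr14:67723125-67723639) also kept FLAG in all 9 and had SMC3 in R377H and R448Q. A site in Arhgap12 on chromosome 18 had FLAG in 8 mutants and SMC3 in 4, at 24.3 kb from WT SMC3. A site 31.9 kb from Nefl, the neurofilament light chain gene (chr14:68051622-68051935), was only 0.268 kb from WT SMC3 and had SMC3 in 6 mutants. The site in Ksr2 had it in none.

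FLAG was kept in at least 8 mutants at 203 cohesin-free sites. It was kept in exactly 8 at 9.98% of cohesin-free and 31.3% of cohesin-positive sites, and in all 9 at 1.87% and 6.02%. SMC3 was listed in no mutant at 253 cohesin-free sites (14.8%, against 0.227% of cohesin-positive sites). FLAG in at least 8 mutants and SMC3 in none held together at 13 cohesin-free sites, and cohesin-positive sites were not counted for this. The strongest lay in Ksr2, which codes for a scaffold of the Ras pathway (chr5:117761460-117761920), with a WT FLAG value of 6.81 and treated and untreated CTCF values of 119 and 57.0. It was 4.98 kb from the nearest WT SMC3 peak. The site in Caln1, a calcium-binding protein gene (chr5:130520611-130520873), kept FLAG in all 9 mutants including H455R, and WT SMC3 was 115 kb away. A site at the start of Ocrl, an inositol phosphatase gene (chrX:47912159-47912464), had a treated CTCF value of 140 and lay 80.1 kb from WT SMC3. Sites in Mbd2, a reader of methylated DNA on chromosome 18, and in Cda, cytidine deaminase (chr4:138340070-138340221), had WT FLAG values of 5.84 and 5.03. At the site 6.79 kb from Ly6c2, a monocyte surface antigen gene (chr15:75118856-75119021), the flanking WT SMC3 numbers were not consecutive, so a removed SMC3 peak may have lain there. All but the Caln1 site lacked FLAG in H455R.

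At the other end, 18 sites had SMC3 in all 9 mutants. The strongest lay in Vit, which codes for the matrix protein vitrin (chr17:78603921-78604242), with a WT FLAG value of 5.67, a treated CTCF value of 132 and a WT SMC3 peak 0.295 kb away. A site in Ifngr1, the interferon gamma receptor gene (chr10:19601656-19601826), had FLAG in all 9 mutants and lay 10.1 kb from WT SMC3. A site 1.65 kb from Alk, a receptor tyrosine kinase gene (chr17:72606356-72606512), was 191 kb from any WT SMC3 peak. Sites in Zfp64 (chr2:168929738-168929986) and 16.5 kb from Vat1l (chr8:114390544-114390794) had treated CTCF values of 156 and 141. For these positions WT was the only one of the 10 SMC3 lists without a peak.

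At 21 cohesin-free sites (1.23%) no mutant had a FLAG peak, against 22 cohesin-positive sites (0.179%). The 4 strongest lay 161 kb from Olfr1505, an olfactory receptor gene (chr19:14080630-14080778), in Trpm3, an ion channel gene (chr19:22829528-22829629), 140 kb from Fmo9, a monooxygenase gene (chr1:166821959-166822066), and in Reln, the gene of reelin (chr5:21986177-21986305). Their WT FLAG values were 4.38, 3.73, 3.57 and 3.40, and their treated CTCF values 59.1, 9.74, 103 and 62.6. The nearest WT SMC3 peak was 82.6, 5.88, 0.459 and 0.137 kb away. Whether the CTCF values at the Fmo9 and Reln sites belong to the site alone was not tested. SMC3 was listed in K365T and R448Q at the Fmo9 site and in no mutant at the other three.

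Cohesin-free sites within 10 kb of regulators of stem cell identity or lineage were 1 to 4 for each list. Among 29 pluripotency genes only Nr5a2, an orphan nuclear receptor gene, had one (chr1:136866809-136867038), with a WT FLAG value of 4.28, FLAG in all mutants but R339Q, and SMC3 in R377H and R448Q. The same list had 14 cohesin-positive sites. Of 39 Hox genes, 1 site overlapping the annotated spans of Hoxd10 and Hoxd11 (chr2:74686463-74686614) was cohesin-free against 13 cohesin-positive, and it had FLAG in S354F and R377C and SMC3 in no mutant. Of 37 mesoderm and endoderm genes 2 had a site. The one 8.10 kb from Eomes, a T-box regulator also used in trophoblast (chr9:118494236-118494414), had both FLAG and SMC3 in 8 mutants, and the one within 10 kb of Tal1, a blood cell regulator (chr4:115047830-115047949), had FLAG in 4 and SMC3 in 3. The trophoblast list of 13 genes had the Eomes site alone, against 11 cohesin-positive.

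Genes of the cohesin machinery themselves had 4 cohesin-free sites against 11 cohesin-positive ones. A site in Nipbl, the gene of the cohesin loader (chr15:8450969-8451378), had a WT FLAG value of 5.25, FLAG in 7 mutants and SMC3 in R342C, R377H, R448Q and H455R, but its flanking WT SMC3 numbers were not consecutive. A site in Stag2, a cohesin subunit gene (chrX:42149061-42149309), had FLAG in 6 mutants and SMC3 in R448Q only. A site in Esco1, which codes for an acetyltransferase of SMC3 on chromosome 18, had FLAG in 5 and SMC3 in R448Q only. Both of the last kept consecutive WT numbers, 116 and 7.09 kb from the nearest WT SMC3 peak.

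Among imprinted genes 3 sites were cohesin-free against 20 cohesin-positive. One lay 8.23 kb from the nearest protein-coding gene, the paternally expressed Mkrn3 (chr7:62428381-62428675), with FLAG in 5 mutants and SMC3 in R342C, Q418R and R448Q. Another lay in Sgce, beside Peg10 (chr6:4747103-4747200), 0.137 kb from WT SMC3, with FLAG in 7 mutants and SMC3 in 5. Neural regulators had 4 cohesin-free and 14 cohesin-positive sites, so 22.2% were cohesin-free. The site 7.04 kb from Pax7 (chr4:139840571-139840682) had FLAG and SMC3 in 7 mutants each, and the one within 10 kb of Gbx2 (chr1:89939351-89939507) had FLAG in 7 and SMC3 in R448Q only. Over the lists the cohesin-free share ran from 6.67% for pluripotency genes to 26.7% for genes of the cohesin machinery. It was 7.14% for the Hox genes, 8.33% for the trophoblast list and 14.3% for mesoderm and endoderm. Each share rests on only 1 to 4 cohesin-free sites, too few to rank the lists. The lists were read as counts, with 12.2% of all CTCF sites cohesin-free, and no list was tested.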

How the data were processed

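Peak lists of 22 labelled groups were analysed; the IgG group and the untreated FLAG group were not used here. The submitters' processing notes name Trim Galore, Bowtie2, MACS2, deepTools and the build mm10, and their versions were not given in the sources used here. Every deposited list has chromosome, start, end, peak name and a score that the authors' peak caller gave. Its measure was not stated, so scores were compared only within a list. Where a FLAG interval appears once per summit, it was merged with the highest score kept. Between 1.30% and 5.26% of running peak numbers are missing, so peaks were removed before deposit by an unstated filter. By title each list pools replicates 1 and 2, and nothing says whether these were separate cultures.

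Overlaps of at least 1 bp were computed with Python 3.11.15, numpy 2.4.6 and pandas 2.3.3, checked against bedtools 2.31.1 (1714 sites by both) and tested on simulated lists. Wilson intervals are over sites. Exact two-sided sign-flip permutation tests over 9 mutants (scipy 1.17.1), adjusted by Benjamini-Hochberg over 3 tests, have the mutant list as the unit. Figures used matplotlib 3.10.9. Standardisation took the difference within each of 10 strength classes, weighted by its cohesin-free sites. Gene spans (34614 protein-coding or lncRNA) and promoter windows came from RefSeq GRCm38.p6; no promoter window was used on chromosome 18, so promoter shares leave it out.

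The members, gene lists and tests were chosen with earlier results of these data known. Named sites were the 8 strongest cohesin-free sites by WT FLAG score, the 3 strongest over 20 kb from WT SMC3, the 6 strongest with FLAG in at least 8 mutants and SMC3 in none, the 6 strongest with SMC3 in all 9, the 4 strongest with FLAG in none, and per gene list up to 3 genes with a site within 10 kb. Some sites that the rule takes are not reported here. The 3 far sites are at Api5, Obp2a and Arhgap12. Promoter examples were chosen after their values were seen, by motif match and score. Alternatives were a reciprocal overlap of 50%, equal numbers of top peaks (3855 FLAG, 42030 SMC3), the upper 50% of each list by score, standardisation over deciles, no WT SMC3 within 1 kb, consecutive peak numbers, b1 tags only and leave-one-out over mutants. A window of 100 bp on either side of the peak midpoint, mutant SMC3 lists limited to the WT length, and deciles of the CTCF value for kept against lost sites were chosen after seeing the data.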

Additional observations from a re-analysis of the deposited data

Results flagged for a closer look

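R448Q stood apart from the other mutants in the SMC3 difference between cohesin-free and cohesin-positive sites. Its value was -31.0 percentage points, and its gap to the next mutant was 0.547 of the whole range of the 9, above the 95% critical value of Dixon's test; chance passes that value in about 1 of 20 such groups. SMC3 was listed in R448Q at 67.2% of cohesin-free sites. Its SMC3 list was the longest, with 153647 peaks, and limited to the WT length of 71962 peaks the difference was -41.1. The other mutants then ran from -64.9 to -56.0, so R448Q still stood apart. With equal numbers of top peaks in every mutant the R448Q difference was -51.9. The others then ran from -66.7 to -56.2 (Q418R), so R448Q was still highest but closer to the next mutant. Dixon's test is given for the full lists only. The part of list length in the R448Q difference was not tested further.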

How the results depend on the processing

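Each list pools its replicates, so the spread between cultures is unknown and depth cannot be judged. No paired analysis was possible because replicates 1 and 2 of every group are merged in 1 list. The number of cohesin-free sites was 1714, 1444 without WT SMC3 within 1 kb, 1682 with consecutive numbers and 1710 with the upper 50% of the CTCF list. With a reciprocal overlap of 50% it was 8, since treated CTCF peaks at these sites have a median width of 1688.5 bp and FLAG peaks 153 bp. The FLAG difference kept its direction and its side of 0.05 in all 8 alternatives, from -17.6 to -5.46 points, and leaving out 1 mutant gave -17.8 to -14.6. The SMC3 difference did so in 9 of 10 alternatives, from -61.2 to -27.4, and leaving out 1 mutant gave -59.0 to -54.7. The kept against lost difference also did so in 9 of 10, from 12.5 to 32.6, and leaving out 1 mutant gave 27.3 to 30.2. The exceptions were the mutants tagged b1 only, with -52.5 and 32.6 points at an exact permutation p of 0.0625, where 5 mutants are too few to pass.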

Other observations

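In 8 of the 9 mutant FLAG lists the peaks at cohesin-free sites had a lower median percentile of value than those at cohesin-positive sites. H455R was the exception, with percentile 71.1 over its 126 cohesin-free sites and 66.3 over its 1172 cohesin-positive sites. Cohesin-free sites within 1 kb of a start had SMC3 in a mean of 33.4% of the mutant lists and a median treated CTCF value of 87.6. Those outside gene spans had 29.4% and 60.5. By distance to the nearest WT SMC3 peak, the mean share of mutant lists with SMC3 was 37.7% within 1 kb, 30.8% from 1 to 10 kb, 28.7% from 10 to 100 kb and 24.0% beyond. Mutant FLAG did not follow this order. Its mean shares were 48.8%, 55.8%, 55.6% and 50.8%, lowest within 1 kb. The treated CTCF value fell along the same classes, with medians of 85.2, 62.5, 59.0 and 53.8. Close to an SMC3 peak, that value may come from a broad antibody peak shared with a neighbouring site, which was not tested.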
